A study of Mus musculus with 31 samples.

Results

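The 44 genes described here encode the machinery of mitosis, the step of the cell cycle in which duplicated chromosomes are condensed, attached to the spindle, separated and divided between daughter cells. They were taken by symbol from a given list, and all 44 were found among the 38283 genes of the deposited tables. The genes were measured by RNA-seq in cells of mouse pancreas at postnatal day 2, from C57BL/6 mice. The pancreata were sorted by flow cytometry into a YFP-positive mesenchymal fraction, the connective tissue cells of the organ, and a YFP-negative fraction of all other cells.

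The series compared loss and gain of Igf2, an insulin-like growth factor, in the mesenchyme with littermate controls. In the Igf2 model the mutants were Igf2+/fl; Nkx3.2Cre/+ and their controls Igf2+/+; Nkx3.2Cre/+. In the H19DMD model, in which the floxed sequence is the differentially methylated domain that controls the imprinted Igf2 and H19 genes, the mutants were H19DMDfl/+; Nkx3.2+/Cre and their controls H19DMD+/+; Nkx3.2+/Cre. Every animal, control or mutant, thus carried the Cre recombinase, which acts where Nkx3.2 is or was active, so that the floxed allele is targeted in the mesenchyme and not in the other fraction. The 6 groups with values were mesenchymal H19DMD controls (3 libraries) and mutants (4), non-mesenchymal H19DMD controls (3) and mutants (4), and non-mesenchymal Igf2 controls (4) and mutants (3). These are 21 of the 31 samples of the series, and the other 10, including the mesenchymal fraction of the Igf2 model, were not analysed here. The labels do not say that replicates came from separate animals, so p-values measure only the spread between these libraries, which may be technical.

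Most of these genes are switched on late in the cell cycle, in G2 and M phase. In resting cells the DREAM complex holds them off, and in dividing cells the activators B-MYB and FOXM1 turn them on, through a short promoter element called the cell cycle genes homology region (CHR) that often lies near CCAAT boxes bound by the factor NF-Y. Their summed RNA in a tissue is widely used as a reading of how many of its cells are dividing, and in the newborn pancreas both the epithelium and the mesenchyme still grow. In bulk samples such as these, fewer dividing cells and less of each RNA per dividing cell cannot be told apart.

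The values are FPKM, counts scaled to transcript length and library size, so that levels can be set side by side between genes. The absolute depth is unknown. The 3 highest features held 38.2 to 58.2% of the FPKM of an H19DMD-model library and 60.5 to 82.5% of an Igf2-model library. Each H19DMD-model library detected 17476 to 19352 genes and each Igf2-model library 19199 to 20918, and no mitosis gene was at 0 anywhere. In the mesenchymal libraries H19 was at 2437 to 2454 FPKM in controls and 565 to 835 FPKM in H19DMD mutants, and Igf2 at 3648 to 4024 and 6162 to 7923 FPKM. In the non-mesenchymal libraries of that model Igf2 was at 45.2 to 53.2 FPKM in controls and 45.4 to 157 FPKM in mutants, 3 of the 4 mutants lying above every control, and H19 at 26.2 to 34.8 and 14.6 to 32.4 FPKM. The 12 mesenchymal markers summed to 5769 to 7442 FPKM in the mesenchymal libraries of the H19DMD model. They summed to 164 to 296 FPKM in the non-mesenchymal libraries of the same model, where Nkx3-2 was at 0 in all libraries. The 12 acinar markers summed to 577 to 1809 FPKM in the mesenchymal and 39911 to 105750 FPKM in the non-mesenchymal libraries. Among the marker sets the acinar one, of digestive enzyme RNA, thus had the largest sums in the non-mesenchymal fraction. By mean log2(FPKM + 1) the 12 endocrine markers were higher, at 8.45 against 8.11 in controls and 8.06 against 7.83 in mutants. The fraction was a mixture, in which endocrine, ductal, leukocyte and erythroid markers were also present.

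The promoters of the genes are shown first, because most hold the family's known control element. RefSeq promoters (GRCm38.p6, 250 bases before to 50 after the start) matched 36 of the 44 genes by symbol, and Smc4, Kif20a, Foxm1, Spc24, Aurkb, Tpx2, Incenp and Ccna2 had no entry. The CHR core was searched as TTTGAA or TTCGAA and the NF-Y box as CCAAT, on both strands, and overlapping matches were each counted. A CHR core stood in 28 of the 36 genes (77.8%), against 21.7% of the 27025 genes with a promoter of the same length. CCAAT stood in 26 of 36 (72.2%, against 41.1%), at least 2 copies of it in 47.2% (13.3% of all genes), and both motifs in 66.7% (8.61% of all genes). Within 50 bases of the start on either side, 69.4% of the mitosis genes held a CHR core and 6.12% of all genes. A match describes letters, not a bound site.

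The stretches below are those of the genes with an RNA difference past the threshold between fractions and a promoter entry (Ube2c, Cdc20, Ccnb2, Kif11 and Cenpf; Spc24 and Incenp also passed but have none) and of Cdk1 and Top2a, which mark the mitotic kinase and the chromosome scaffold. Each gives the 100 bases from position -110 to -11 before the RefSeq start, 5′ to 3′ on the gene's strand, with CHR cores (TTTGAA, or TTCAAA on the other strand) and CCAAT boxes (ATTGG on the other strand) in capitals. They lie at chr2:164769819-164769918, plus strand; chr4:118437354-118437453, minus strand; chr9:70421565-70421664, minus strand; chr19:37376272-37376371, plus strand; chr1:189688097-189688196, minus strand; chr10:69352923-69353022, minus strand; and chr11:99024200-99024299, minus strand.
Ube2c: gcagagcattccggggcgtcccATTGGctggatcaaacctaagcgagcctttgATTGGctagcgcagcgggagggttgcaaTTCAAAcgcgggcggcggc
Cdc20: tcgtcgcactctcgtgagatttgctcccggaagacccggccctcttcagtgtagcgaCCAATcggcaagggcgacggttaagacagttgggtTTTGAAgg
Ccnb2: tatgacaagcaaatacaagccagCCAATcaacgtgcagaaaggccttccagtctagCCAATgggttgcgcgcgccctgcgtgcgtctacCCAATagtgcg
Kif11: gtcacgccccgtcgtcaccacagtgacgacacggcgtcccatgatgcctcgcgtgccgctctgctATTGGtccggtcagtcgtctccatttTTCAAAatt
Cenpf: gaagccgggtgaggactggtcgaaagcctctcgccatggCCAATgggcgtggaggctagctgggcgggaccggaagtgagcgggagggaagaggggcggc
Cdk1: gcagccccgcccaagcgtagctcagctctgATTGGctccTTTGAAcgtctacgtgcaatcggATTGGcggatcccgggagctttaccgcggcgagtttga
Top2a: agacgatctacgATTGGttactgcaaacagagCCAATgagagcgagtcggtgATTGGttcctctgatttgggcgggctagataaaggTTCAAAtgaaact
All 7 hold at least 1 CCAAT box here, and Ube2c, Cdc20, Kif11, Cdk1 and Top2a hold a CHR core in this stretch. Another core of Cdk1 runs past the end of its stretch and is not in capitals. Ccnb2 and Cenpf have their nearest CHR core just past the start, and Ccnb2 has another farther upstream, as the plot of motif positions shows.

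**Figure D1:**
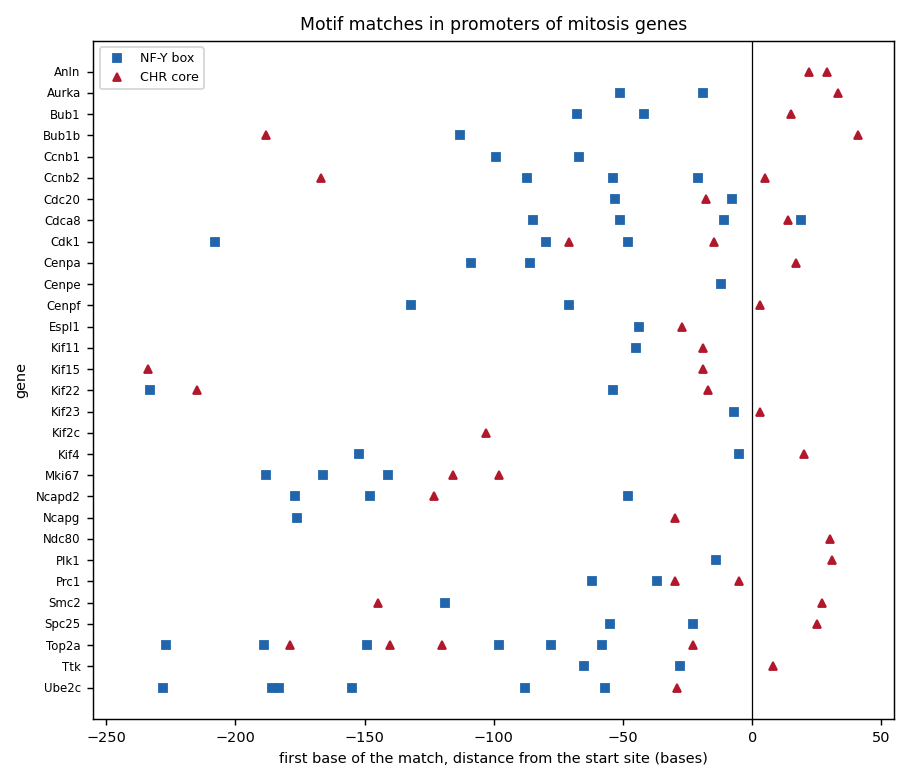
Positions of CHR core matches (triangles) and NF-Y box matches (squares) in the promoters of the mitosis genes with a match; the x axis is the distance in bases of the first base of a match from the RefSeq start site. Of the 40 CHR core matches, in 28 genes, the median position is -18.5, and of the 58 NF-Y box matches, in 26 genes, it is -69.5. The CHR core (-5 and -30) and the NF-Y box (-37 and -62) of Prc1 are each counted from both of its start sites.

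Levels spanned more than an order of magnitude between the genes. Top2a, Prc1, Smc4 and Mki67 were among the 5 highest, and Espl1 and Kif20a among the 4 lowest, in all 6 groups. In control mesenchyme the most abundant were Top2a, the topoisomerase that untangles replicated DNA (63.4 ± 1.08 FPKM, SD, n = 3), Prc1, which bundles microtubules of the central spindle (58.6 ± 8.77 FPKM, SD, n = 3), the condensin subunit Smc4 (49.6 ± 1.26 FPKM, SD, n = 3) and the proliferation marker Mki67 (43.8 ± 6.74 FPKM, SD, n = 3). The lowest were Espl1, the protease separase that cuts cohesin (1.602 ± 0.390 FPKM, SD, n = 3), the cytokinesis kinesin Kif20a (2.89 ± 0.771 FPKM, SD, n = 3) and the Polo kinase Plk1 (3.54 ± 2.08 FPKM, SD, n = 3). Top2a and Prc1 differed by less than the SD of Prc1, as did Smc4 and Mki67 by less than that of Mki67, and Kif20a and Plk1 by less than that of either. In the non-mesenchymal controls of both models Ube2c, the ubiquitin enzyme that works with the anaphase promoting complex, was at the head of the list, with 73.8 ± 16.4 FPKM, SD, n = 3 in the H19DMD model and 78.2 ± 33.8 FPKM, SD, n = 4 in the Igf2 model. Top2a followed at 72.7 and 74.1 FPKM, less than the SD of Ube2c below it in each model. The 2 tables were normalised separately, so these levels are only set side by side.

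Averaged over the 44 genes on the log2(FPKM + 1) scale, the 3 control mesenchymal libraries were alike, at 3.77, 3.78 and 3.79. The 4 mutant mesenchymal libraries were at 3.64, 3.50, 3.06 and 3.31, each below every control. The non-mesenchymal libraries of the H19DMD model were at 3.79, 4.26 and 3.97 in controls and 3.79, 3.89, 3.79 and 4.14 in mutants, and these groups overlapped. In the Igf2 model the controls were at 4.53, 4.44, 4.19 and 4.06 and the mutants at 3.95, 4.04 and 4.22, again with overlap. These means describe the libraries and carry no test.

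**Figure D2:**
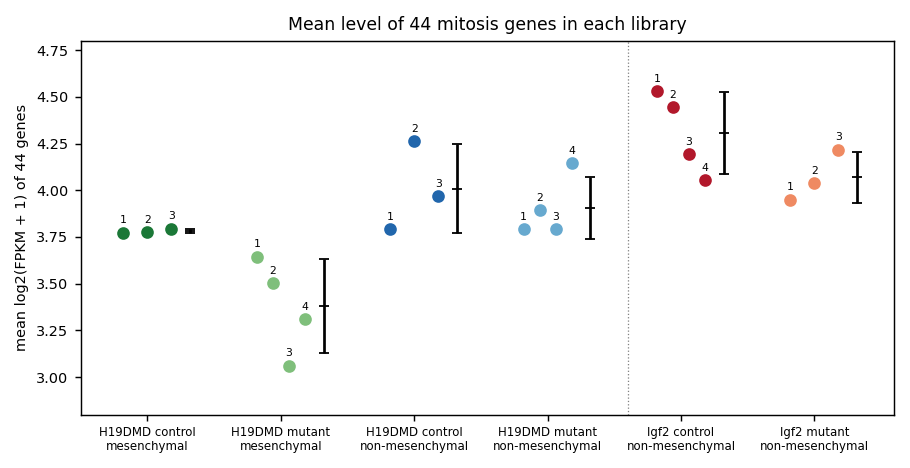
Mean log2(FPKM + 1) of the 44 mitosis genes in each library (points, with the replicate number), with the group mean and SD beside them (black bars); the dotted line separates the tables, which were normalised separately. The 4 mutant mesenchymal libraries, from 3.06 to 3.64, lie below the 3 control mesenchymal libraries, from 3.77 to 3.79, and the other pairs of groups overlap.

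The first comparison asked how RNA levels differed in the mesenchyme with the H19DMD deletion. There 43 of the 44 genes had a lower mean of log2(FPKM + 1) in mutants, with Prc1 the exception (log2 difference 0.05), while 57.3% of the 15856 genes tested lay below 0. The median difference of the mitosis genes was -0.37, against -0.07 over all genes tested. No single gene passed the threshold of an adjusted p under 0.05 (limma, Benjamini-Hochberg over all genes), which 0.0694% of all genes passed. At an unadjusted p under 0.05, 6 of the 44 were lower (13.6%, against 3.32% of all genes) and 0 higher (1.44% of all genes). In 11 of the 44 (25.0%, against 3.77% of all genes) every mutant library was below every control library.

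The gene with the largest difference was Foxm1, the transcription factor that drives much of this family. It was at 28.97, 19.98 and 38.8 FPKM in control and 12.02, 15.4, 5.58 and 18.4 FPKM in mutant mesenchyme, so that the highest mutant library stayed below the lowest control. The mutant mean was 43.9% of the control mean, a log2 difference of -1.19 ± 0.41 (SE; 95% interval -2.16 to -0.21), with an unadjusted limma p of 0.0235 and an adjusted p of 0.927. Foxm1 shares exon sequence with Tex52 and Gm44596 in the annotation, so reads of these genes may be counted with it. Mki67, whose protein coats mitotic chromosomes, was at 50.01, 44.7 and 36.6 FPKM in controls and 44.8, 37.7, 24.6 and 24.5 FPKM in mutants, where the libraries overlapped (log2 difference -0.44 ± 0.26).

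Kinetochore genes, whose proteins tie chromosomes to spindle microtubules, lay below 0 in all 7 cases, with a median log2 difference of -0.57. Nuf2, a subunit of the NDC80 complex that grips the microtubule, had the smallest unadjusted p of the 44 genes, at 9.997, 7.76 and 8.83 FPKM in controls and 4.72, 5.63, 4.42 and 5.01 FPKM in mutants. Its log2 difference was -0.73 ± 0.18, with an unadjusted limma p of 0.00518, an adjusted p of 0.927 and an exact two-sided permutation p of 0.0286, the smallest that 4 against 3 libraries can give. All 4 mutant libraries lay below all 3 controls in Nuf2. Its partner Spc24 was at 14.1, 7.47 and 12.8 FPKM in controls and 7.72, 5.597, 3.62 and 7.99 FPKM in mutants, a log2 difference of -0.79 ± 0.32. The Spc24 groups overlapped, the second control lying below the highest mutants. Ndc80 itself (log2 difference -0.50) and the kinetochore motor Cenpe (-0.30) also had no overlap between groups. Cenpf, a large protein of the kinetochore and nuclear matrix, was nearly constant in controls, at 11.5, 11.4 and 11.2 FPKM, and spread in mutants, at 11.9, 7.28, 4.43 and 8.42 FPKM. The first mutant library was above all controls in Cenpf and the other mutant libraries were below them.

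Of the checkpoint genes, which hold back anaphase until chromosomes are attached, Ttk (the Mps1 kinase) was at 6.16, 5.41 and 5.47 FPKM in controls and 4.88, 3.699, 1.46 and 1.78 FPKM in mutants. The Ttk groups did not overlap, and the log2 difference was -0.85 ± 0.35 (unadjusted limma p = 0.0471, exact two-sided permutation p = 0.0571). Bub1b, another checkpoint kinase, was near 0 at -0.11. In the chromosomal passenger complex, which corrects faulty attachments, Birc5 (survivin) was at 22.9, 17.8 and 17.3 FPKM in controls and 14.3, 12.2, 5.04 and 15.5 FPKM in mutants. All mutant libraries were below the controls in Birc5, a log2 difference of -0.76 ± 0.37, and the complex's scaffold Incenp was at -0.36, also without overlap. The kinase of that complex, Aurkb, was at 26.6, 19.95 and 40.2 FPKM in controls and 29.7, 17.8, 22.3 and 26.4 FPKM in mutants, with overlap (log2 difference -0.23 ± 0.28).

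The mitotic kinase Cdk1 was at 24.7, 32.04 and 23.9 FPKM in controls and 32.6, 19.1, 9.82 and 23.4 FPKM in mutants, and its activator Ccnb1 (cyclin B1) at 7.23, 7.77 and 6.07 and 7.15, 4.33, 4.67 and 4.87 FPKM. Both overlapped, with log2 differences of -0.43 ± 0.38 and -0.37 ± 0.22. Plk1, the Polo kinase of mitotic entry and exit, was low throughout, at 4.61, 1.15 and 4.86 FPKM in controls and 2.99, 1.76, 0.660 and 1.29 FPKM in mutants (-0.70 ± 0.48), and on this scale changes of such low genes are understated. The abundant Top2a was at 62.4, 63.1 and 64.5 FPKM in controls against 55.98, 58.6, 49.97 and 40.1 FPKM in mutants. No mutant library reached the lowest Top2a control, and the log2 difference was -0.32 ± 0.17.

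All 7 kinesin motors lay below 0, from -0.58 (Kif4, a chromosome-bound motor) to -0.04 (Kif2c, which takes microtubule ends apart). Kif11, the motor that pushes spindle poles apart, was at 12.1, 14.5 and 14.1 FPKM in controls and 11.6, 7.96, 7.26 and 10.3 FPKM in mutants. Its groups did not overlap, and the log2 difference was -0.52 ± 0.21 (unadjusted limma p = 0.0412, exact two-sided permutation p = 0.0571). Anln (anillin), a scaffold of the cleavage furrow, was at -0.55 ± 0.23. The smallest differences were those of Prc1, Kif2c, Smc4 (-0.04), the spindle assembly factor Tpx2 (-0.04) and the passenger protein Cdca8 (-0.06), whose mean FPKM was higher in mutants (9.87) than in controls (9.14). Smc4 was at 48.3, 49.7 and 50.8 FPKM in controls and 49.7, 53.03, 52.7 and 38.5 FPKM in mutants, so that 3 of 4 mutant libraries lay within or above the controls.

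**Figure D3:**
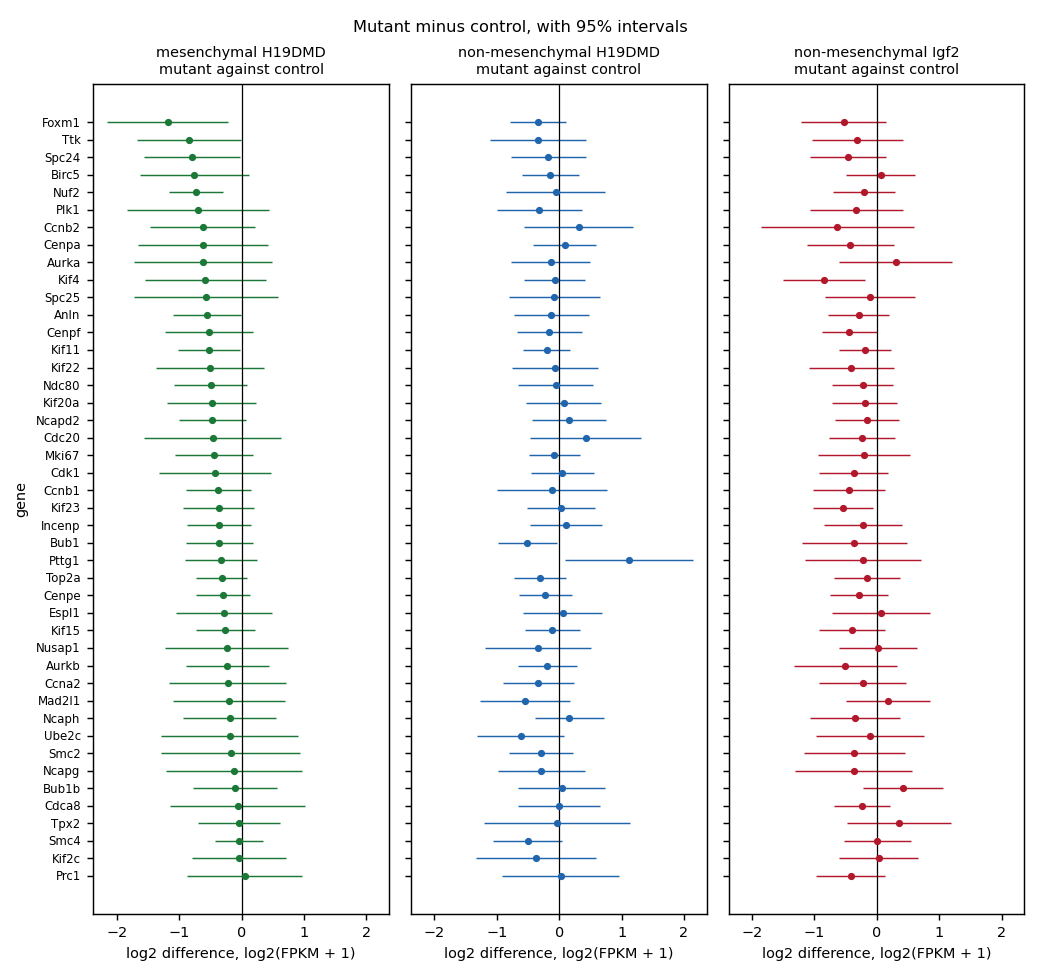
Log2 difference (mutant minus control, on log2(FPKM + 1)) of each mitosis gene with its 95% limma interval in the mesenchymal H19DMD, non-mesenchymal H19DMD and non-mesenchymal Igf2 comparisons, in the order of the first. In the mesenchyme 43 of 44 points lie below 0 and most intervals cross it; 31 and 35 of 44 lie below 0 in the other comparisons.

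The shift was not the same in every mutant library. The third mutant library had the lowest value of its group in 24 of the 44 genes and the first the highest in 21. The third library was also low over all genes, with a median log2(FPKM + 1) of 2.67 against 2.85 to 3.01 in the other mesenchymal libraries. With it left out the median difference of the mitosis genes was -0.32. After scaling each library by its median ratio, the mean over the 44 genes was 3.65, 3.70 and 3.70 in controls and 3.62, 3.42, 3.17 and 3.21 in mutants, still without overlap, and 39 of the 44 genes lay below 0. Markers of other cells overlapped between genotypes: 10 leukocyte markers summed to 16.5 to 32.02 FPKM in controls and 29.2 to 68.6 FPKM in mutants, with 3 to 5 of them at 0 (Cd3e in all libraries). Every mutant library but the first lay above every control in the leukocyte sum. The 10 ductal markers summed to 45.8 to 94.96 and 24.6 to 47.3 FPKM, every mutant library but the first lying below every control. The mesenchymal and acinar sums also overlapped between genotypes. The part of these cells in the result was not tested.

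A list of 139 other mitosis genes and regulators, of which 136 were found, was read in the same way. In mutant mesenchyme 107 of the 135 tested lay below 0 (79.3%, against 57.3% of all genes), with a median of -0.22. By limma 0 passed the threshold, with 7 lower (5.19%, against 3.32% of all genes) and 1 higher (against 1.44%) at an unadjusted p under 0.05. All 8 cytokinesis genes of that list lay below 0 (median -0.55), as did 19 of 21 spindle genes (median -0.27). The anaphase promoting complex, the ubiquitin ligase that ends mitosis, was at a median of -0.03, near that of all genes. The most extreme were Cdca3 (-1.01), the cytokinesis kinase Cit (-0.99), the NF-Y subunit gene Nfyc (0.87) and Mlf1ip, a centromere gene (1.5).

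In the non-mesenchymal cells of the H19DMD model, which the deletion does not target by design, 31 of the 44 genes lay below 0, against 43.9% of the 16239 genes tested. The median was -0.11, against 0.05 over all genes. No gene passed the threshold (0.0677% of all genes did), and no gene separated the groups (2.2% of all genes did so downward and 3.47% upward). At an unadjusted limma p under 0.05, 1 gene, Bub1, was lower (2.38% of all genes) and 1, Pttg1, higher (2.96%). Without the second control library, which held the highest value of its group in 29 of 44 genes, the median was 0.0087, and without the first it was -0.24. The sign of the median in these cells thus depended on the second control.

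Pttg1 encodes securin, the inhibitor that keeps separase silent until anaphase. It was at 7.096, 20.8 and 4.695 FPKM in non-mesenchymal controls and 21.9, 17.1, 23.99 and 20.9 FPKM in mutants, a log2 difference of 1.12 ± 0.44 (unadjusted limma p = 0.0358, exact permutation p = 0.0571, adjusted p = 0.892). The first Pttg1 control and the third were low and the second lay among the mutants. Bub1, a kinetochore checkpoint kinase, was at 10.8, 15.9 and 17.4 FPKM in controls and 10.3, 9.54, 8.56 and 11.04 FPKM in mutants (-0.51 ± 0.20). The other genes of the 5 lowest were Ube2c (-0.62), Mad2l1, the checkpoint protein Mad2 (-0.56), Smc4 (-0.51) and Kif2c (-0.37). Cdc20, the activator of the anaphase promoting complex (0.42), Ccnb2, cyclin B2 (0.31), and the condensin genes Ncaph and Ncapd2 (both 0.16) were on the upper side.

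The anchors of the family showed no separation there. Top2a was at 64.2, 76.6 and 77.4 FPKM in controls and 61.4, 45.6, 60.5 and 68.4 FPKM in mutants, and Mki67 at 51.6, 58.9 and 58.8 and 51.8, 50.3, 45.5 and 68.3 FPKM. Foxm1 was at 18.2, 24.6 and 16.9 and 13.6, 14.2, 15.6 and 18.5 FPKM, with a log2 difference of -0.34 ± 0.19. Cdk1 was at 33.8, 25.9 and 19.4 and 25.1, 23.5, 30.1 and 28.6 FPKM, and Ccnb1 at 5.79, 14.5 and 4.21 and 7.93, 7.23, 5.99 and 5.34 FPKM. The groups overlapped in each of these genes, although 3 of the 4 mutant values lay below every control in both Top2a and Foxm1. Plk1 was at 4.43, 4.17 and 6.82 and 2.81, 5.07, 2.803 and 5.23 FPKM, Aurkb at 20.8, 26.9 and 33.7 and 20.9, 22.3, 27.998 and 22.3 FPKM, and Cenpf at 18.05, 15.1 and 19.7 and 11.3, 15.6, 16.8 and 20.1 FPKM, all with overlap. Erythroid markers, of the red cell lineage, summed to 114 to 373 FPKM in these controls and 143 to 1509 FPKM in the mutants. The 12 endocrine markers summed to 20016 to 30083 FPKM in controls and 11331 to 20619 FPKM in mutants, 3 of the 4 mutants lying below every control. The part of these cells was not tested. Of the other mitosis genes 76 of 135 lay below 0 (56.3%, against 43.9% of all genes). By limma 0 passed the threshold, 6 being lower (4.44%, against 2.38%) and 0 higher (against 2.96%) at an unadjusted p under 0.05, with Zwilch (-1.13) and Cdca2 (-0.76) lowest and Haus1 (0.87) and Ncaph2 (1.02) highest.

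Whether the effect of the deletion differed between fractions was tested directly as an interaction. The difference was more negative in the mesenchyme for 34 of the 44 genes, with a median of -0.36, but 58.9% of the 17105 genes tested were also below 0, with a median of -0.11. None of the 44 passed the threshold, which 0.0117% of all genes passed. The only gene at an unadjusted limma p under 0.05 was Pttg1, at -1.45 ± 0.52 (unadjusted p = 0.0167, adjusted p = 0.755), a direction 4.55% of all genes shared at that level (1.8% the other way). Foxm1 was at -0.85 ± 0.47. Scaling by median ratios moved the median of all genes to near 0 and that of the mitosis genes to -0.24, with 29 of 44 below 0. The lower mitosis RNA seen in the mesenchyme was thus not shown to differ from the non-mesenchymal response gene by gene. Without the third mutant mesenchymal library the interaction median was -0.23.

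In the Igf2 model the non-mesenchymal cells were compared between mutants and controls. Here 35 of the 44 genes lay below 0, against 52.9% of the 17441 genes tested, with a median of -0.24 against -0.03 over all genes. None passed the threshold (0.0631% of all genes did), and at an unadjusted limma p under 0.05 there were 2 lower, a share of 4.55% against 2.37% of all genes, and 0 higher (2.91% of all genes). Groups did not overlap for 3 genes (6.82%, against 3.37%), Kif4, Kif23 and Cenpf. Without the first mutant library the median was -0.15.

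Kif4 was at 14.8, 12.1, 8.201 and 10.1 FPKM in controls and 4.29, 5.17 and 8.14 FPKM in mutants, with the highest mutant just under the lowest control. The mutant mean was 51.9% of the control mean (-0.85 ± 0.28, unadjusted limma p = 0.0181, exact permutation p = 0.0571, adjusted p = 0.919), and Kif4 shares exon sequence with Pdzd11 on the other strand. Kif23, the central spindle motor needed for cytokinesis, was at 15.9, 19.5, 16.6 and 16.4 FPKM in controls and 8.74, 11.6 and 14.5 FPKM in mutants. Every mutant library was below every Kif23 control, with -0.54 ± 0.20 (unadjusted limma p = 0.0316, exact permutation p = 0.0286). Cenpf was at 25.3, 26.97, 19.5 and 20.5 and 19.3, 14.3 and 16.5 FPKM, a log2 difference of -0.44 ± 0.19.

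Foxm1 was at 26.4, 47.3, 23.8 and 24.05 FPKM in controls and 20.5, 15.7 and 24.03 FPKM in mutants, and Aurkb at 45.8, 43.1, 25.8 and 33.9 and 15.04, 39.6 and 26.8 FPKM. Ccnb2 was at 20.05, 59.5, 13.4 and 14.4 FPKM in controls, where the second library stood far above the others, and 10.3, 14.3 and 18.2 FPKM in mutants. Their log2 differences were -0.54 ± 0.29, -0.51 ± 0.35 and -0.63 ± 0.52 and none passed the threshold. On the upper side Bub1b was at 30.95, 37.7, 33.9 and 26.6 FPKM in controls and 46.99, 28.3 and 59.97 FPKM in mutants (0.42 ± 0.27). Tpx2 (0.36), the spindle pole kinase Aurka (0.30), Mad2l1 (0.18) and Espl1 (0.07) came next.

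Mki67 ranged from 43.7 to 104 FPKM in these controls, wider than the 57.7, 55.1 and 52.5 FPKM of the mutants, which lay inside that range. Top2a was at 93.1, 80.6, 70.6 and 52.2 and 55.5, 73.6 and 66.2 FPKM, Cdk1 at 45.8, 44.04, 57.8 and 37.8 and 37.1, 25.9 and 45.3 FPKM. Ccnb1 was at 10.3, 10.9, 6.999 and 7.603 and 5.56, 5.18 and 8.23 FPKM and Plk1 at 12.3, 10.5, 8.02 and 5.37 and 5.01, 6.504 and 9.21 FPKM, all overlapping. The cell mixture also differed between these groups: the 12 acinar markers summed to 29977 to 43335 FPKM in controls and 88373 to 100498 FPKM in mutants, and the 10 leukocyte markers to 563 to 834 and 812 to 1199 FPKM, none of the latter at 0. The 10 ductal markers summed to 1743 to 2140 FPKM in controls and 1388 to 1701 FPKM in mutants, without overlap. Erythroid markers summed to 631 to 3455 and 506 to 1509 FPKM. The part of these cells in the mitosis values was not tested. Of the other 136 mitosis genes 89 lay below 0 (65.4%, against 52.9% of all genes). By limma 0 passed the threshold, 3 being lower (2.21%, against 2.37%) and 2 higher (against 2.91%) at an unadjusted p under 0.05, near or below the background; the extremes were Ckap5 (-0.80), Trip13 (-0.77), Oip5 (0.73) and Haus1 (0.74).

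The Igf2 comparison shares no library with the H19DMD comparisons, so their directions can be counted side by side. In 34 of the 44 genes (77.3%) the difference was below 0 in both the non-mesenchymal Igf2 and the mesenchymal H19DMD comparison, against 32.4% of all genes tested in both. With 35 and 43 of the 44 below 0 in each comparison alone, a count near this follows from those shares, so it does not show that the same genes were low in both. For the non-mesenchymal cells of both models it was below 0 in 24 of 44 (54.5%, against 22.0%), with 35 and 31 of the 44 below 0 in each alone, to which the same applies. Over the 44 genes the differences correlated at Pearson r = 0.33 in the first pair and -0.12 in the second, as descriptions across genes, which are not independent.

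The fractions were compared within genotype. In controls 35 of the 44 genes lay lower on average in the mesenchyme, against 45.8% of the 16732 genes tested, with a median of -0.20 against 0.08 over all genes. Yet only 1 gene passed the threshold, Ube2c, lower in mesenchyme (2.27% of the 44, against 10.3% of all genes in that direction), and 0 passed as higher (12.4% of all genes; 22.6% in either direction). Groups did not overlap for 10 lower genes, against 17.4% of all genes, and for 1 higher gene, against 22.4%. Scaling by median ratios moved the median of all genes by more than 0.1, from 0.08 to -0.03, and that of the mitosis genes to -0.32, with 40 of 44 lower. Without the first non-mesenchymal control the median was -0.34, and without the second -0.11.

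Ube2c, whose promoter is printed above, was at 30.6, 32.96 and 14.6 FPKM in mesenchymal and 54.8, 83.2 and 83.3 FPKM in non-mesenchymal controls. The mesenchymal mean was 35.3% of the other, with no overlap, and the log2 difference was -1.52 ± 0.36 (limma adjusted p = 0.0302). Ube2c kept its call in 8 of 12 alternatives and lost it without the first mesenchymal control the second non-mesenchymal control or the third, or with the replicate block; it also shares exon sequence with Tnnc2. Pttg1 went the other way, at 25.5, 41.4 and 42.4 FPKM in mesenchymal against 7.096, 20.8 and 4.695 FPKM in non-mesenchymal controls. All mesenchymal Pttg1 values lay above the others (1.87 ± 0.53), just short of the threshold with a limma adjusted p of 0.0540. Pttg1 was called in 3 of the 12 alternatives, namely with features of at least 200 nt, with all groups fitted together and without the second non-mesenchymal control. Foxm1 (0.50), Anln (0.37) and Nuf2 (0.15) were the next highest in mesenchyme, and Mad2l1 (-0.88), Spc24 (-0.73), the condensin gene Ncapg (-0.71) and Bub1 (-0.64) the next lowest; none of these passed.

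**Figure D4:**
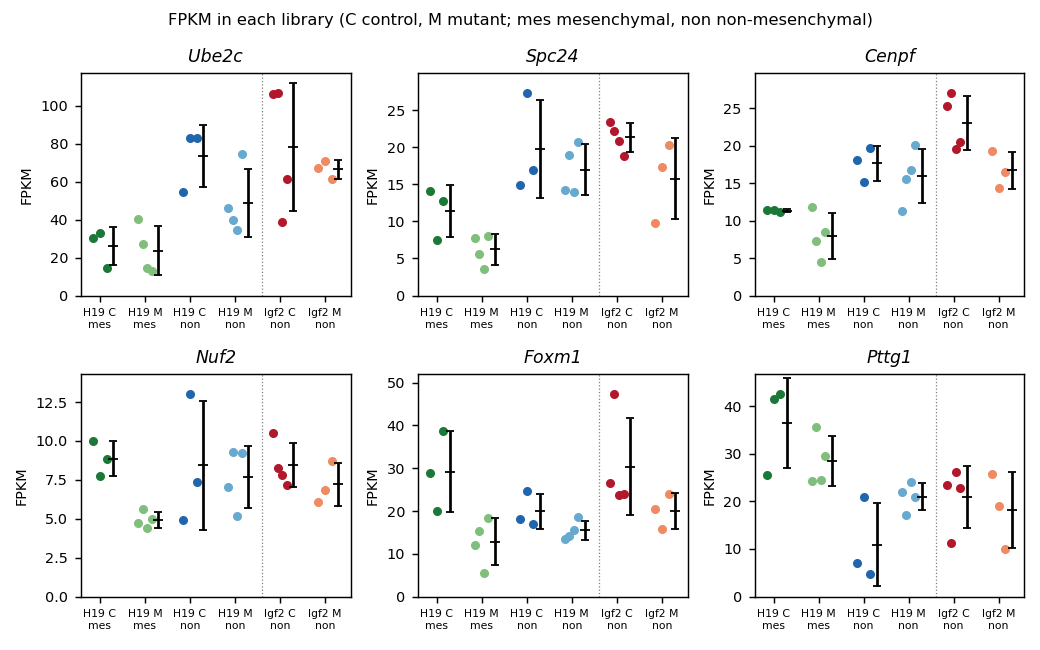
FPKM of 6 mitosis genes in each library (points) with group mean and SD (black), for H19DMD controls and mutants of each fraction and, right of the dotted line, non-mesenchymal Igf2 controls and mutants from the other table. Ube2c, Spc24 and Cenpf are lower in mesenchymal than in non-mesenchymal H19DMD libraries on average, Pttg1 is higher, and Nuf2 and Foxm1 separate mutant from control mesenchyme.

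In H19DMD mutants 39 of the 44 genes lay lower on average in the mesenchyme, against 51.6% of the 16767 genes tested, with a median of -0.52 against -0.03. There 6 genes passed the threshold, all lower in mesenchyme: 13.6% of the 44, close to the 15.1% of all genes that were called lower (28.6% in either direction). No gene passed as higher (13.5% of all genes). Groups did not overlap for 10 lower genes, against 16.6% of all genes, and for 1 higher, Pttg1, against 14.4%. The count of calls ranged from 1 to 10 when single libraries were left out, with 1 call without the third mesenchymal mutant, the second non-mesenchymal mutant or the fourth, 2 without the second and 10 without the first mesenchymal mutant. At an unadjusted limma p under 0.05, 19 genes were lower (43.2%, against 20.6% of all genes).

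Spc24 was at 7.72, 5.597, 3.62 and 7.99 FPKM in mesenchymal and 14.2, 18.97, 13.97 and 20.7 FPKM in non-mesenchymal mutants. The mesenchymal mean was 36.7% of the other without overlap (-1.34 ± 0.26, limma adjusted p = 0.00531), and Spc24 alone kept its call in all 14 alternatives. Ccnb2 was at 9.14, 12.5, 4.51 and 5.37 and 17.8, 20.7, 11.2 and 20.4 FPKM (-1.12 ± 0.33, limma adjusted p = 0.0357), with the highest mesenchymal library above the lowest of the others. Cdc20 was at 4.02, 2.97, 2.82 and 4.67 and 10.96, 10.8, 4.35 and 7.58 FPKM (-0.98 ± 0.30, adjusted p = 0.0394); it shares exon sequence with Elovl1. These calls held in 9 and 5 of the alternatives.

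Cenpf was at 11.9, 7.28, 4.43 and 8.42 and 11.3, 15.6, 16.8 and 20.1 FPKM (-0.95 ± 0.29, limma adjusted p = 0.0400). Incenp, at 5.24, 4.72, 3.41 and 4.85 and 10.2, 9.15, 5.74 and 10.9 FPKM, had no overlap (-0.83 ± 0.23, adjusted p = 0.0275). Kif11 was at 11.6, 7.96, 7.26 and 10.3 and 12.97, 15.3, 15.5 and 17.2 FPKM, and all Kif11 values of the mesenchyme lay below those of the other fraction (-0.67 ± 0.18, adjusted p = 0.0274). Cenpa, the histone variant that marks centromeres (-1.17 ± 0.38, adjusted p = 0.0520), and Mki67 (-0.73 ± 0.24, limma adjusted p = 0.0521) just missed the threshold. Kif22 (adjusted p = 0.0565), Plk1 (0.0709) and Ube2c (-1.09 ± 0.39, adjusted p = 0.0729) came next by p in limma. The Mki67 groups did not overlap, and Mki67 was called in 5 of the 14 alternatives. Of the 14 alternatives the call held in 6 for Cenpf, 9 for Incenp and 8 for Kif11, and Cenpf, Kif11 and Cdc20 lost it with the replicate block. At the other end were Pttg1 (0.42), Prc1 (0.14), Smc4, Kif2c (both 0.04) and Aurkb (0.02). The difference between fractions was below 0 in both genotypes for 33 of the 44 genes (75.0%, against 37.5% of all genes), with 35 and 39 below 0 in each alone, so this count too lies near what those shares give.

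Of 16 genes of the anaphase promoting complex, 12 were above 0 in the mesenchyme in each genotype. Past the threshold were 3 in controls (18.8%, against 12.4% of all genes) and 2 in mutants (12.5%, against 13.5% of all genes), the latter near the background share. In controls its subunit genes Anapc1 (65.3 against 33.6 FPKM, log2 difference 0.95, limma adjusted p = 0.0173), Anapc5 (0.96, adjusted p = 0.00690) and Cdc16 (0.93, adjusted p = 0.0153) were higher in mesenchyme, as was the cohesin regulator Pds5b (1.40, adjusted p = 0.00191). The repressor gene E2f8 was lower (-1.22, adjusted p = 0.0199). These 4 higher and 1 lower calls among 136 genes are shares of 2.94% and 0.735%, below the 12.4% and 10.3% of all genes. In mutants 7 were higher (5.15%, against 13.5% of all genes) and 14 lower (10.3%, against 15.1%). The higher ones were led by Pds5b (1.5), Anapc1 (0.94), the centromere gene Cenpi (0.93), Cdc16 (0.88), E2f7 (0.73) and Cenph (0.65). The lower ones were led by the activator E2f2 (-1.69), Cdca5, which guards cohesion (-1.47), the kinase subunit Cks2 (-1.45), Arhgap11a (-1.25), Cenpl (-1.09) and Haus1 (-1.05).

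**Figure D5:**
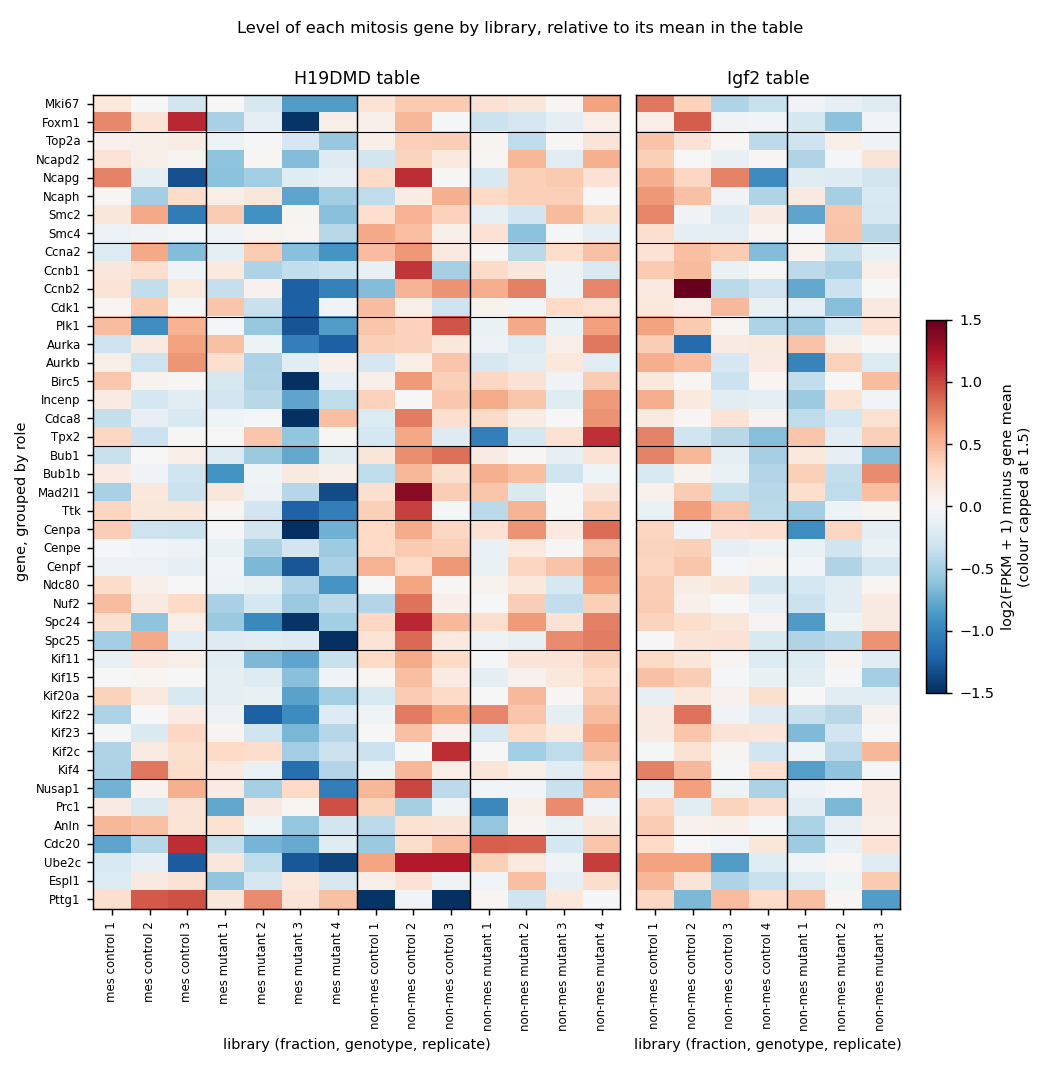
Level of each mitosis gene (rows, grouped by role) in each library (columns) as log2(FPKM + 1) minus the gene's mean over the libraries of its table, with the colour capped at 1.5; black lines part the groups and roles, and mes stands for mesenchymal. The third mutant mesenchymal library holds the lowest value of its group in 24 of 44 genes, and the second non-mesenchymal control the highest in 29.

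The genes also varied together from library to library within groups. After the group means were removed, a gene's deviation correlated with the mean of the other 43 at a median Pearson r of 0.52 over the 14 libraries of the H19DMD table, and 39 of the 44 were above 0. All other genes tested had a median r of 0.12 with the mean of the 44. Kif23 and Anln followed the family most closely (both 0.82), while Prc1 (-0.44), Espl1 and Bub1b (both -0.23) ran against it. Without the third mutant mesenchymal library the median was 0.50. Over the 7 libraries of the Igf2 table the median was 0.58 (0.0028 for other genes), from -0.74 for Kif20a to 0.97 for Plk1. These values are descriptions, since genes of a library share its depth and scaling and its cell mixture. The median SD within groups was 0.43 and 0.36 log2 units in the H19DMD and Igf2 tables for these genes and 0.44 in both for all genes.

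Reads were counted without a stated use of strand, and 14 of the 44 genes share exon sequence with another annotated gene, so their values are uncertain to that extent. Besides those named above they are Ccna2 with Exosc9, Cdca8 with 9930104L06Rik, Kif20a with Cdc23, Ncapg with Lcorl, Nusap1 with Oip5, Prc1 with Rccd1, Kif22 with the antisense transcript Gm31749, Plk1 with the unclassified Gm44985, Ncapd2 with Scarna10 and the sense intronic Gm28967, and Top2a with the small nucleolar RNA Gm23451. Genes that results rest on lie, in the 1-based coordinates of GRCm38, at chr1:169497934-169531464 (Nuf2), chr9:21755442-21760286 (Spc24), chr19:37376403-37421859 (Kif11), chr1:189640599-189688086 (Cenpf), chr11:98992943-99024189 (Top2a), chr11:43420250-43426251 (Pttg1) and chr19:9872297-9899533 (Incenp), all protein coding.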

How the data were processed

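The labels' protocols describe RNA amplified from 2 ng with the Ovation RNA-seq V2 kit and sequenced on a HiSeq instrument as 50-base single reads. TopHat2 2.0.8, Cufflinks 2.2.1 and the GRCm38 build are named in the submitters' processing notes. The values are FPKM per gene as deposited by the authors, in 1 table per model, normalised separately, with no counts, so depth is unknown. 8 columns were not used.

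Within a table, log2(FPKM + 1) was tested, for genes whose average in the compared groups reached 1 FPKM, with limma 3.58.1 (R 4.3.3; lmFit, eBayes with trend, two-sided), with Benjamini-Hochberg adjustment over all genes and a threshold of 0.05; the limma fit was tested on simulated data. Exact permutation tests cover single genes. All 44 genes may be named, with values per library for 8 anchors and for the 5 most extreme genes each way in a comparison; library values of Kif11 and Incenp were added after their values were seen; of the other mitosis genes, those called (at most 6 each way), otherwise the 2 most extreme each way. Alternatives were a pseudocount of 0.1, no filter, median-ratio scaling, features of at least 200 nt, all groups of a table, a replicate block, and leaving out each library. The members, lists and tests were chosen with earlier results of these data known. Table starts count from 0 and were raised by 1. Python 3.11.15 drew summaries.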

Additional observations from a re-analysis of the deposited data

Results flagged for a closer look

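Groups of 4 libraries were screened for a value set apart from the rest by Dixon's gap ratio, and 5 of 135 such tests stood out, where chance alone gives about 1 in 20. Spc25 was at 2.95 FPKM in the fourth mutant mesenchymal library, with the others at 11.3 to 11.6 FPKM. The other 4 concern the second non-mesenchymal Igf2 control: it had the highest Foxm1 value (47.3 FPKM, others 23.8 to 26.4 FPKM) and the lowest values of Aurka (3.59 FPKM, others 10.1 to 12.2 FPKM), Prc1 (56.8 FPKM, others 76.7 to 81.0 FPKM) and Pttg1 (11.3 FPKM, others 22.8 to 26.1 FPKM).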

How the results depend on the processing

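In the 3 mutant comparisons and the interaction, no mitosis gene passed the threshold under any alternative run. The medians kept their sign under all alternatives, except in non-mesenchymal H19DMD cells, where it was 0.0087 without the second control (leave-one-out range -0.24 to 0.0087). In mutant mesenchyme the median ranged from -0.49 to -0.30 over 13 alternatives, with 39 to 43 genes below 0. Between fractions in controls, the count lower was 2 with median-ratio scaling, and 0 with the replicate block; the count higher was 1 with features of at least 200 nt and 1 with all groups fitted together. Leaving out a library gave 0 to 1 lower, 0 to 1 higher and a median of -0.34 to -0.11. In mutants the count lower, 6 in the reported fit, was 4 with no filter, 4 with the replicate block, 7 with the smaller pseudocount, 9 with median-ratio scaling, 10 with features of at least 200 nt, 11 with all groups fitted together, and 1 to 10 when a library was left out. The cause of these shifts was not tested.

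The labels do not say that replicate numbers pair samples, and same-numbered libraries correlated at no more than 0.0674 in their deviations; the reported fits have no block. Between fractions all 7 such correlations were above 0 (0.00738 to 0.0674), so pairing there is not excluded. Libraries correlated best with their own number in 4 of 6 and 5 of 8 cases between fractions, 4 of 6, 1 of 6 and 0 of 6 between genotypes. With the replicate block 2660 genes were called between control fractions, against 3785 without it. Few libraries per group and unknown depth limit what small differences can show.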
